A study of Mus musculus with 4 samples.

Results

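The Id genes Id1, Id2, Id3 and Id4 were followed by ATAC-seq, which sequences the DNA that a transposase can reach in open chromatin, in large peritoneal macrophages (LPMs). Peaks of the 4 libraries that shared 1 bp or more were merged into 70744 regions. A region was taken where an Id gene had the RefSeq transcription start nearest to its midpoint or where it overlapped the gene body. This gave 13 of the 70744 regions, of which 4 belonged to Id1, 4 to Id2, 3 to Id3 and 2 to Id4. Id3 was picked from this same contrast, because the fold enrichment of its promoter fell with little change in the summit pileup, so its values are given as a description with no test.

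LPMs were sorted from the peritoneal cavity of C57BL/6 mice aged 9 weeks, with 40000 cells per library. The control genotype Rxrab fl/fl (2 libraries, replicates 1 and 3) carried floxed alleles of Rxra and Rxrb, which encode the retinoid X receptors (RXRs), without Cre. The genotype with Cre, LysMCre+ Rxrab fl/fl (2 libraries, replicates 1 and 2), carried the same floxed alleles and Cre driven from the lysozyme 2 locus, which is active in macrophages, monocytes and neutrophils. Loss of the floxed exons cannot be read from peaks. All libraries had the same library batch in the labels, and since no source used here ties a library to 1 mouse or to a pool, p-values measure only the spread between libraries.

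Id proteins are helix-loop-helix proteins without a basic region, so they cannot bind DNA on their own. They pair with E proteins (encoded by Tcf3, Tcf4 and Tcf12) and keep them from binding E-boxes, the CANNTG elements at which E proteins and their tissue-specific partners act. Their genes are among the best known direct targets of bone morphogenetic protein (BMP) signalling through SMAD factors, and Id3 is known as a factor of Kupffer cells, the resident macrophages of the liver, while Id2 is known for its part in innate lymphoid cells and dendritic cells.

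Each deposited peak carried a fold enrichment and a p value from MACS2. From these, 2 whole numbers were solved for nearly all peaks. The summit pileup is the number of tags, extended to 200 bp, that cover the summit. The local background is the pileup that the tags in the 10 kb around the summit would give if they were spread evenly, with a floor set by the whole library, and it is given here as the number of tags in those 10 kb. Fold enrichment is (pileup + 1) divided by (background + 1), so it falls when the pileup drops and also when the 10 kb around the summit gain tags. Values of the 4 libraries are given in the order Rxrab fl/fl replicate 1, Rxrab fl/fl replicate 3, LysMCre+ Rxrab fl/fl replicate 1 and LysMCre+ Rxrab fl/fl replicate 2.

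The libraries differed in strength. Peaks numbered 38048, 16097, 65421 and 55581, and the median summit pileup over the 14974 regions called and solved in all 4 libraries was 98, 21, 100 and 65 tags. Rxrab fl/fl replicate 3 stood apart as the weakest library. Total tag numbers are not in the peak lists, and the pileups themselves limit the precision. The lowest background, the floor set by the whole library, was 1.97, 1.06, 1.33 and 1.08. Rxrab fl/fl replicate 3 and LysMCre+ Rxrab fl/fl replicate 2 thus had similar floors, with median pileups of 21 and 65 tags. Of 10 LPM marker promoters 8, 8, 10 and 10 were called (Csf1r and Itgam lacked a peak in the controls), of 8 promoters of small peritoneal and monocyte-derived macrophages 3, 2, 7 and 7, of 6 neutrophil and mast cell promoters 1, 0, 1 and 1, and of 8 lymphocyte promoters 0 in every library. Markers of the second class thus moved with genotype and with peak number, and their part in the values below was not tested. In a bulk library, fewer cells with open chromatin and less open chromatin per cell cannot be told apart.

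The sequences that carry the Id findings are shown first, with E-boxes (CANNTG) and KLF and SP boxes (GGGCGG or its reverse complement CCGCCC) in capitals and all other bases in lower case. Promoter bases are from RefSeq on GRCm38.p6, whose table held 3 of the 4 members (Id2, Id3 and Id4), and the 300-base windows at region midpoints were read from the same assembly. Only bases outside annotated exons are printed, except for a short site of 30 bases at Id3. The Id2 promoter is shown from −250 to −162 of its start (chr12:25096254-25096342, minus strand), the Id3 promoter from −104 to −75 (chr4:136143718-136143747, plus strand) and the Id4 promoter from −250 to −1 (chr13:48260866-48261115, plus strand).
Id2 promoter: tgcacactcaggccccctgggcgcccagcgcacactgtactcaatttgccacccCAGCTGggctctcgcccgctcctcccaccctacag
Id3 promoter site: gcggtgcccaGGGCGGGCGGgggtggaccc
Id4 promoter: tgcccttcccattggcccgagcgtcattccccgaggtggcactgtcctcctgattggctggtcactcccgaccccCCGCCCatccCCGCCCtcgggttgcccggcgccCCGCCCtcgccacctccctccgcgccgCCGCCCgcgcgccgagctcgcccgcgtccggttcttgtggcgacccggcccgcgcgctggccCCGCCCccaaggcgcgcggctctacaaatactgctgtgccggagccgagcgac

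All 250 bases before the RefSeq start of Id3 lie in the first exon of a GENCODE M21 transcript that begins at −325, and the merged Id3 promoter region spans both starts. The next windows, all on the plus strand, are those of the Id3 regions that were called in LysMCre+ Rxrab fl/fl libraries alone (chr4:136147635-136147934 and chr4:136148384-136148683) and of the distal Id1 region that was called in all 4 libraries (chr2:152741608-152741907). All 3 are intergenic.
Id3 +3.96 kb window: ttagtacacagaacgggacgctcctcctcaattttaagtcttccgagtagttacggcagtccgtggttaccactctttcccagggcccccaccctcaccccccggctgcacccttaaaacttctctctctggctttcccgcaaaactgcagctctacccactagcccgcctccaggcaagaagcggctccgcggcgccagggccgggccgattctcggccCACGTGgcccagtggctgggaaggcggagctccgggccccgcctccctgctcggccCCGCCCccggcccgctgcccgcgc
Id3 +4.71 kb window: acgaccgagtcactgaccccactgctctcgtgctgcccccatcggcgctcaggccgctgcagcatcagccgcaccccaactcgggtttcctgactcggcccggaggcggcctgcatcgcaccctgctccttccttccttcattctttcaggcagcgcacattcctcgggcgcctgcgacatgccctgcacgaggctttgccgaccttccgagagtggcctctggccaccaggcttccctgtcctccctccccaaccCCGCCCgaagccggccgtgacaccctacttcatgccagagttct
Id1 +5.51 kb window: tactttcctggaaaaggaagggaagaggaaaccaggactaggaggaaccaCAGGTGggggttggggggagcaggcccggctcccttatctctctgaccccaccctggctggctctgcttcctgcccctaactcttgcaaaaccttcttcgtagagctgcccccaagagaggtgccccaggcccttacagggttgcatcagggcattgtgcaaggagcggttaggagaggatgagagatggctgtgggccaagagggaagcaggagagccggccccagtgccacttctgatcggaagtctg

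The KLF and SP box GGGCGG (both strands) occurred 2 times in the 250 bases before the start of Id3, as a pair that overlaps by 2 bases, 5 times before Id4 and 1 time before Id2, and 32.7% of all 32817 promoters held it. CANNTG occurred 1 time before Id2, as CAGCTG, and 0 times before Id3 and Id4, against 66.2% of promoters with a match. The GC-rich SMAD element GGCGCC was found 1 time each before Id2 and Id4 (9.59% of promoters), the SMAD box GTCT 1 time before Id2 and 2 times before Id3 (82.9%), and CGTCA, part of the cAMP response element, 1 time each before Id3 and Id4 (17.7%). The hexamers AGGTCA and AGTTCA are among the units of nuclear receptor elements, and other forms of the unit were not searched. These hexamers, and their direct repeats with 1, 2 or 5 bases between, were not among the letters of these 3 promoters. Of all promoters, 24.2% held a hexamer and 0.0670%, 0.0366% and 0.0335% such a repeat.

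The same search in the 3 distal windows found no such hexamer either, against 30.7% of the 70744 windows of this length. The +3.96 kb window of Id3 held a CACGTG E-box (75.9% of windows held a CANNTG), and it and the +4.71 kb window each held 1 GGCGCC (8.62% of windows) and 1 GGGCGG box (21.9%). The Id1 +5.51 kb window held a CAGGTG E-box and 1 GATA element, searched as AGATAA or TGATAA (17.3%). The cAMP response element TGACGTCA (1.55% of promoters and 0.924% of windows), the PU.1 motif GAGGAAGT (2.44% and 10.2%), the C/EBP motif TTGCNNCAA (1.74% and 2.44%) and the AP-1 motif TGANTCA (6.75% and 15.1%) matched in none of the 6 sequences. Both Id3 windows were rich in G and C, with 67% and 66% GC and 25 and 23 CpG, while the regions with a peak in the 2 LysMCre+ Rxrab fl/fl libraries but in neither control had medians of 49.7% GC and 4 CpG. Of those 16133 regions, 95.8% held fewer CpG than the +3.96 kb window and 95.2% fewer than the +4.71 kb window. Over all 70744 windows these shares were 88.2% and 86.7%. Regions called in all 4 libraries had medians of 57.3% GC and 13 CpG. Matches and base composition are descriptions of these letters, not of binding.

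Across libraries, 8, 5, 12 and 11 of the 13 Id regions were called, beside 52.0%, 21.9%, 90.7% and 77.2% of all regions. These counts follow the peak numbers of the libraries, and nothing about the Id genes is read from them. Calls in all 4 libraries were made at 5 of the 13, against 21.5% of all regions. These were the promoter regions of the 4 genes and the Id1 +5.51 kb region, so every Id gene had a promoter peak in every library. A peak in the 2 LysMCre+ Rxrab fl/fl libraries but in no control was found at 3 regions (Id1 −12.1 kb, Id3 +3.96 kb and Id3 +4.71 kb), against 22.8% of all regions, and a peak in both controls alone at 0 regions, against 0.0452%. With the same number of peaks taken from each library, 7 Id regions remained. Of these, 0 had a peak in the 2 LysMCre+ Rxrab fl/fl libraries but in no control, and 1 (Id1 +5.51 kb) had a peak in both controls alone. Peaks in all 4 libraries remained at 2 of the 7, the Id2 and Id3 promoters. The promoters of Id1 and Id4 then lacked a peak in at least 1 library. Shares over all regions were not computed in this setting. Taking equal numbers removes peaks from the longer lists, so it cannot show why the controls lacked a peak at those 3 regions. The reason was not tested.

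**Figure D1:**
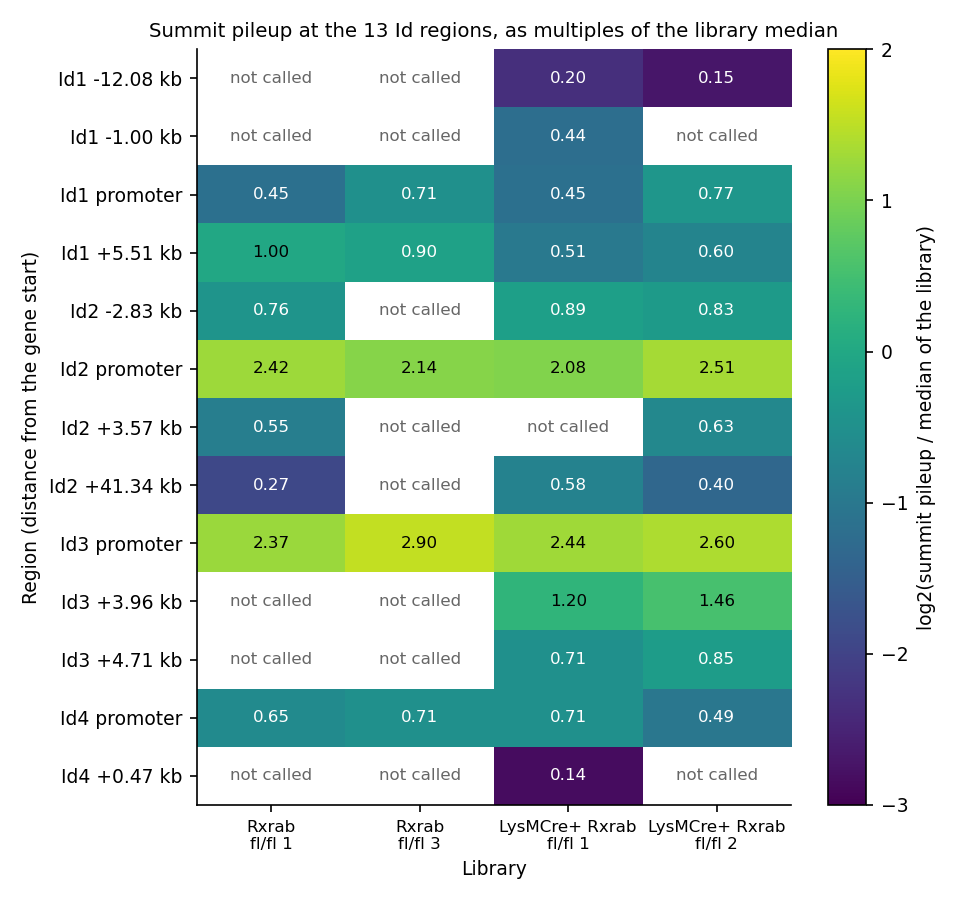
Summit pileup of the 13 Id regions in each library, divided by the median pileup of that library over the regions called in all 4 libraries, with colour on a log2 scale and blank cells where no peak was called. The Id2 and Id3 promoters stood above 2 times the median in all 4 libraries, and the Id3 +3.96 kb and +4.71 kb regions were filled in the LysMCre+ Rxrab fl/fl columns alone.

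The Id3 promoter region (chr4:136143481-136144046) was the member whose fold enrichment differed most between the genotypes, and the difference lay in the tags around the summit. Fold enrichment was 19.2, 15.7, 8.69 and 6.74, higher in both controls than in both LysMCre+ Rxrab fl/fl libraries. The summit pileup was 232, 61, 244 and 169 tags, or 2.37, 2.90, 2.44 and 2.60 times the median of each library, and on this scale the genotypes overlapped. Tags in the 10 kb around the summit numbered 558, 148, 1360 and 1212, or 1.90, 1.63, 4.72 and 5.41 times the library median, and here the genotypes did not overlap. Of all 14974 regions, 32.8% were lower without overlap in fold enrichment and 25% higher without overlap in background, and nothing is read from this at Id3.

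Centred on the library medians, the difference (LysMCre+ Rxrab fl/fl minus Rxrab fl/fl) at the Id3 promoter was −1.54 in log2 fold enrichment, −0.04 in log2 summit pileup and 1.47 in log2 local background. These are the values Id3 was chosen on. Scaled by the lowest background of each library in place of its median, the pileup change was 1.03, beside a median of 1.00 over all regions, and the background change 2.16, beside 0.63. Summits lay at −119, −120, −149 and −119 bp from the RefSeq start, inside the promoter sequence of which a site is printed above. The summit pileup was 41.6%, 41.2%, 17.9% and 13.9% of the tags in the 10 kb, which puts the same ratio on a scale without library medians. Set against the lowest background of each library in place of the local one, the enrichment was 78.5, 30.1, 105 and 81.8, with LysMCre+ Rxrab fl/fl values above both controls, though Rxrab fl/fl replicate 3 gave the low value and replicate 1 was close to LysMCre+ Rxrab fl/fl replicate 2.

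**Figure D2:**
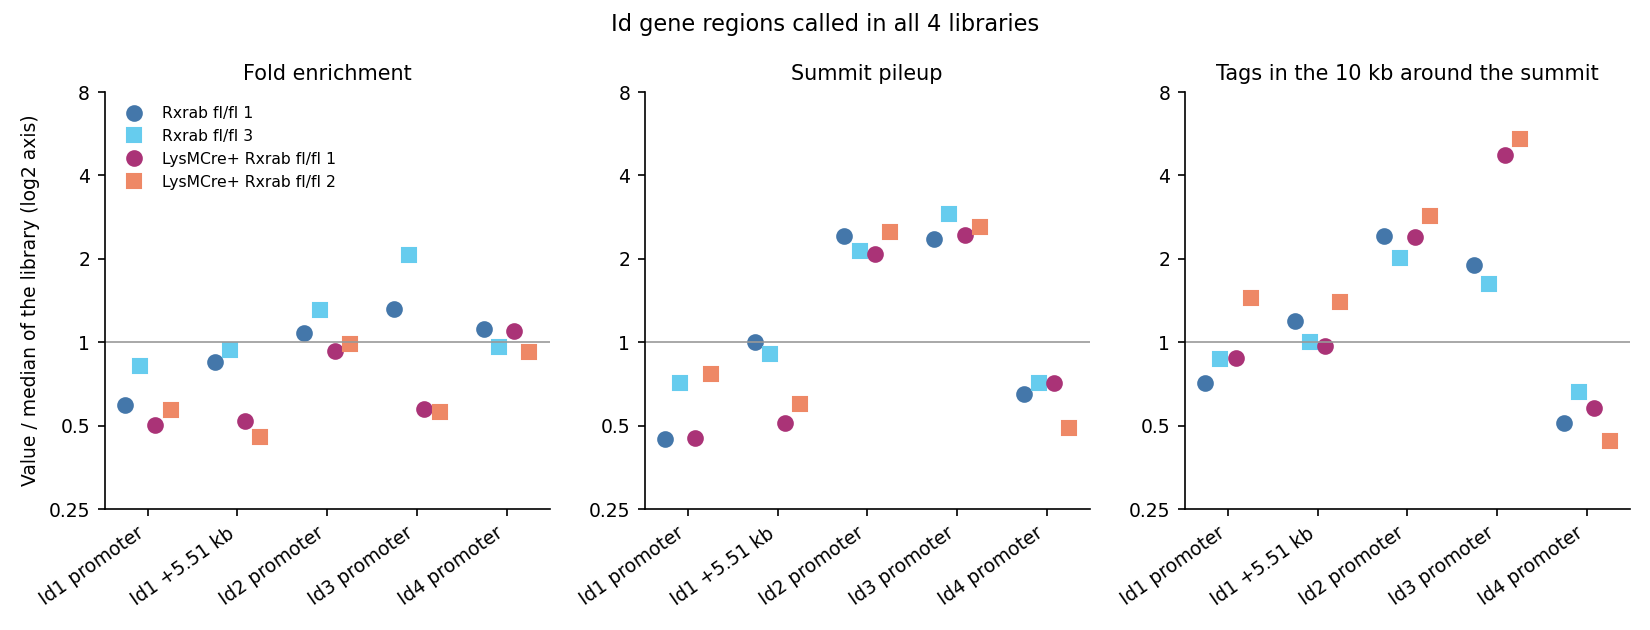
Fold enrichment, summit pileup and tags in the 10 kb around the summit at the 5 Id regions called in all 4 libraries, each divided by the library median (log2 axis, 1 point per library). At the Id3 promoter the fold enrichment of both LysMCre+ Rxrab fl/fl libraries (0.573 and 0.560) lay below both controls (1.31 and 2.07), the pileups overlapped, and the tags were 4.72 and 5.41 against 1.90 and 1.63.

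The 10 kb around the Id3 summit held 2, 1, 4 and 4 peaks. In both LysMCre+ Rxrab fl/fl libraries they included the 2 downstream Id3 regions, past the end of the gene at 1.57 kb. The +3.96 kb region (chr4:136147377-136148191) had a fold enrichment of 4.85 and 4.00 and a summit pileup of 120 and 95 tags in LysMCre+ Rxrab fl/fl replicates 1 and 2, with summits at 3959 and 3724 bp. When only the 100 bp on each side of a summit were kept, the peaks of the 2 libraries no longer overlapped. The +4.71 kb region (chr4:136148370-136148697) had a fold enrichment of 3.11 and 2.48 and a pileup of 71 and 55 tags. Their pileups were 1.20 and 1.46, and 0.71 and 0.846, times the library median. Among the 16133 regions called in the same way, the mean pileup ranked 29 for the +3.96 kb region and 292 for the +4.71 kb region, against a median of 19 tags. Their tags in the 10 kb ranked 57 and 69, with means of 1174 and 1095 against a median of 83. These 10 kb windows overlap that of the Id3 promoter, whose background was part of the choice of Id3. The regions ranked were also called through the LysMCre+ Rxrab fl/fl libraries alone. The ranks are thus a description and no support for the values at Id3. A call in a denser 10 kb needs a higher pileup. Their fold enrichment was 0.320 and 0.332, and 0.205 and 0.206, times the library median.

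With the local background of the Id3 promoter and the lowest −log10 p in each list, a call beside Id3 would have needed a pileup of about 25 tags in Rxrab fl/fl replicate 1 and 11 tags in replicate 3, or 0.255 and 0.524 times the library median. The values in LysMCre+ Rxrab fl/fl libraries at both downstream regions lay above these limits. A pileup below the limit in the controls was not detectable from peak lists, so the absence of a call there does not give a level of 0.

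The region just outside the Id3 set lies −3.33 kb from the Id3 start (chr4:136140293-136140701) and was nearest to Gm42329, a non-coding gene. It was called in 3 libraries, where fold enrichment was 5.46 (Rxrab fl/fl replicate 1), 7.75 and 6.50 (LysMCre+ Rxrab fl/fl replicates 1 and 2), with pileups of 59, 136 and 88 tags. Its 10 kb window overlaps that of the Id3 promoter, and the promoter window held 59, 526 and 577 tags more than it in these 3 libraries. That difference is the tags between about 1.65 and 4.88 kb downstream of the Id3 start less those between about −8.35 and −5.12 kb. The excess was larger in both LysMCre+ Rxrab fl/fl libraries than in the 1 control that could be read. It rests on the tags around the Id3 summit, on which Id3 was chosen, so it is a description only. The next gene, E2f2, begins 28.5 kb away and had 9 regions. By library, 5, 0, 9 and 8 of them were called, beside 52.0%, 21.9%, 90.7% and 77.2% of all regions.

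**Figure D3:**
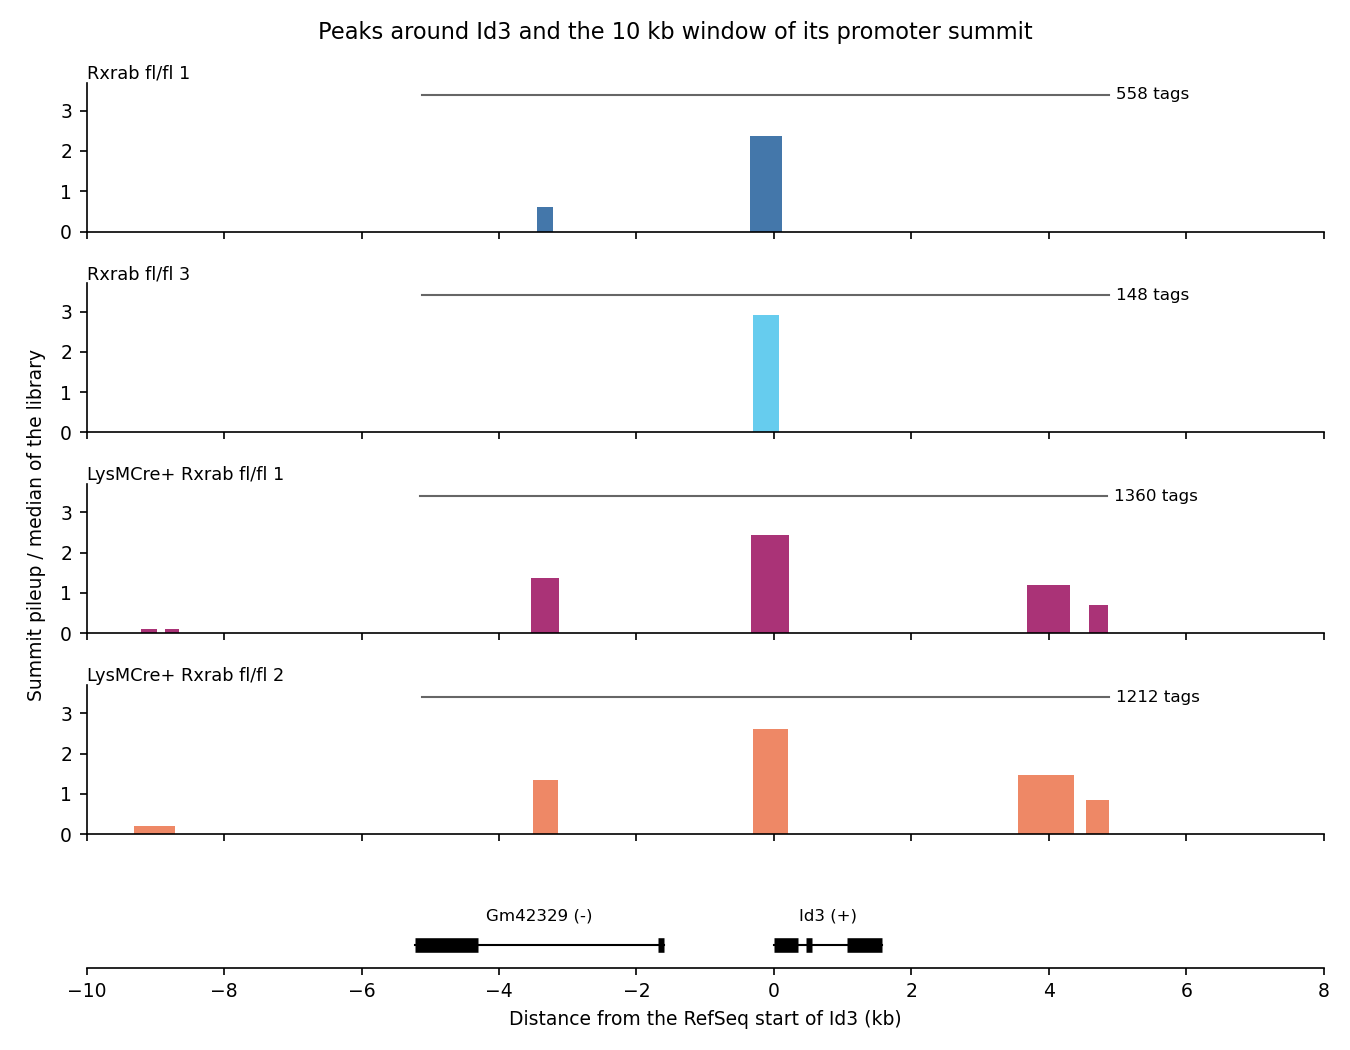
Peaks around the RefSeq start of Id3 in each library, with bars as wide as the peak and as high as its summit pileup divided by the library median, and exons of Gm42329 and Id3 as blocks at the foot. The grey line is the 10 kb window of the promoter summit with its tags (558, 148, 1360 and 1212), and peaks with summits 3724 to 4756 bp from the start stand in the LysMCre+ Rxrab fl/fl libraries alone.

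The 5 regions whose 8 centred values (log2 pileup and log2 background of the 4 libraries) were closest to those of the Id3 promoter lay near Smim4, Pip5k1c, Csrp1, Zmiz1 and Lfng, at Euclidean distances of 0.601 to 0.846 against a median of 4.27 over 14973 regions. At the Smim4 promoter (0.138 kb from the start) the pileups were 214, 74, 277 and 175 tags and the 10 kb held 568, 160, 1317 and 857. Their background changes ran from 0.83 to 1.23 and their pileup changes from −0.01 to 0.56 on the log2 scale. Without one library at a time, 2 or 3 of these 5 regions stayed among the nearest 5.

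The 4 regions of Id1, Id2 and Id4 that were called in all 4 libraries were tested with limma over 14974 regions, where a region was called at an adjusted p (Benjamini-Hochberg) under 0.05 if its change was past 1 on the log2 scale. The other 8 Id regions lacked a peak in at least 1 library and did not enter this fit. In fold enrichment 0 of the 4 passed (1 at an unadjusted p under 0.05), against 10 of 14974 regions (0.0668%, and 21.8% unadjusted). In summit pileup 0 of the 4 passed (1 unadjusted), against 6.74% of regions (32.5% unadjusted), and in local background 0 of the 4 (0 unadjusted), against 1.75% (25.6% unadjusted). Set against these shares, 0 of 4 is no result about the Id genes. Their median changes were −0.35, −0.10 and 0.19 on the log2 scale, beside medians of −0.09, −0.07 and −0.05 over all regions tested.

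**Figure D4:**
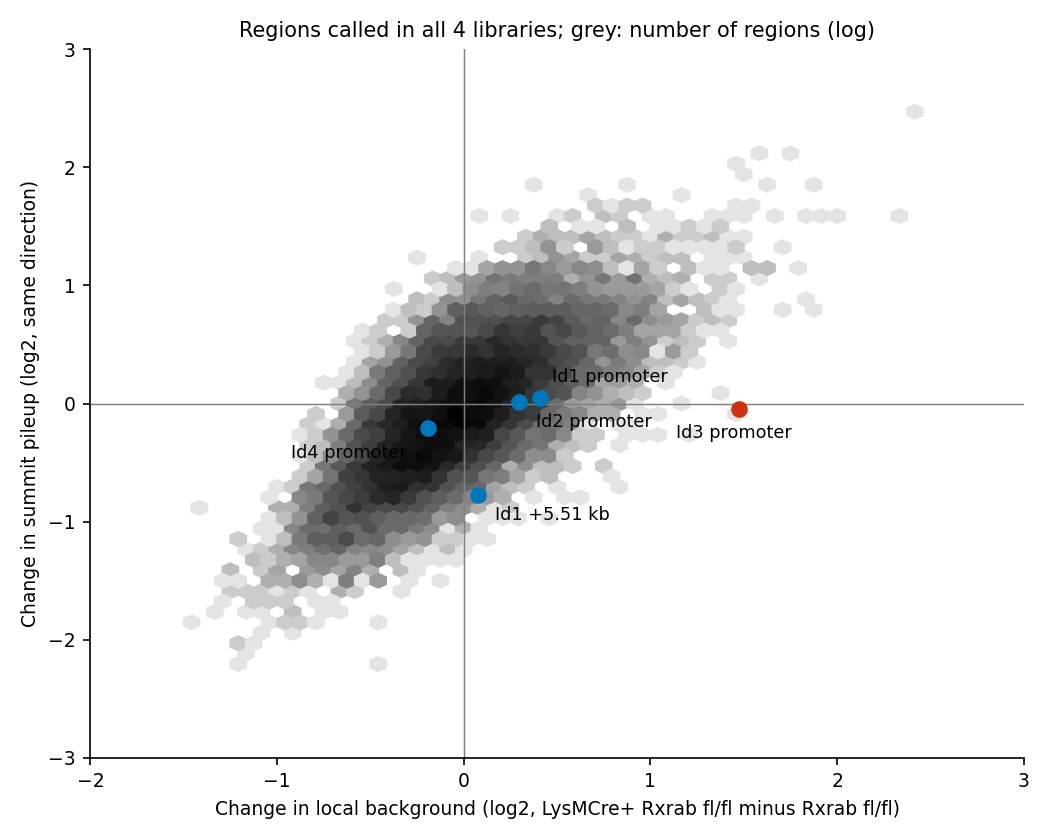
Change in log2 summit pileup against change in log2 local background (LysMCre+ Rxrab fl/fl minus Rxrab fl/fl) at the 14974 regions called in all 4 libraries, with darker cells holding more regions. The Id3 promoter (1.47 and −0.04) lies at the edge of the cloud, the promoters of Id1, Id2 and Id4 lie inside it, and the Id1 +5.51 kb region (0.08 and −0.77) lies low in pileup.

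The Id1 promoter region (chr2:152735853-152736487) had the lowest fold enrichment of the 4 promoters in all libraries but LysMCre+ Rxrab fl/fl replicate 2, where that of Id3 was lower. It had values of 8.69, 6.20, 7.62 and 6.84, with pileups of 44, 15, 45 and 50 tags and 209, 79, 252 and 323 tags in the 10 kb. LysMCre+ Rxrab fl/fl replicate 2 was highest in tags and pileup relative to its library (0.769 times the median pileup against 0.449 to 0.714). The change in fold enrichment was −0.39 ± 0.23 (SE, adjusted p = 0.325 from limma), that in pileup 0.05 ± 0.32 (adjusted p = 0.934) and that in background 0.41 ± 0.23 (adjusted p = 0.253). Relative to the library median, fold enrichment was lower in both LysMCre+ Rxrab fl/fl libraries than in both controls, as it was at 32.8% of all regions tested, and no change exceeded the spread between libraries by this test. A separate peak at −1.0 kb (chr2:152735115-152735380) was called in LysMCre+ Rxrab fl/fl replicate 1 alone, at 7.58 in fold enrichment and 44 tags, and a peak at −12.1 kb (chr2:152723987-152724354) in both LysMCre+ Rxrab fl/fl libraries, with 20 and 10 tags.

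The Id1 +5.51 kb region (chr2:152741372-152742143), whose window is printed above, was the tested member with the largest drop in fold enrichment. It had a fold enrichment of 12.4, 7.09, 7.90 and 5.49 and a summit pileup of 98, 19, 51 and 39 tags, which is 1.00, 0.905, 0.51 and 0.60 times the library median. Tags in the 10 kb numbered 349, 91, 279 and 314, or 1.19, 1.00, 0.969 and 1.40 times the library median. Relative to its library, the pileup was lower in both LysMCre+ Rxrab fl/fl libraries than in both controls, as at 34.8% of all regions tested, and the tags overlapped.

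The changes at this region were −0.87 ± 0.21 in log2 fold enrichment (SE, adjusted p = 0.0687 from limma), −0.77 ± 0.22 in log2 summit pileup (adjusted p = 0.0518) and 0.08 ± 0.22 in log2 local background (adjusted p = 0.863). None passed the threshold. Without Rxrab fl/fl replicate 3, the weakest library, the change was −1.14 in fold enrichment (adjusted p = 0.0400) and −1.25 in pileup (adjusted p = 0.0162 from limma), past both limits. That fit has 1 control library, which is assumed to vary like the LysMCre+ Rxrab fl/fl pair, and it called 1068 regions in fold enrichment and 4393 in pileup over the whole table, against 10 and 1009 with all 4 libraries. Scaled by the lowest background of each library, the pileup change at this region was 0.30 (adjusted p = 0.726 from limma), beside a median of 1.00 over all regions. Over all alternatives run, the adjusted p from limma ran from 0.00327 to 0.476 for fold enrichment and from 0.0162 to 0.726 for pileup. The summit of LysMCre+ Rxrab fl/fl replicate 1 lay at 5261 bp from the start while those of the other libraries lay at 5536 to 5561 bp, and when only the 100 bp on each side of a summit were kept, the region was no longer shared by all 4 libraries.

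The Id2 promoter region (chr12:25095889-25096577) was in the same range as that of Id3 in pileup. Fold enrichment was 15.7, 9.87, 14.1 and 11.9, the pileup was 237, 45, 208 and 163 tags, and the 10 kb held 709, 183, 691 and 640 tags. Pileups were 2.42, 2.14, 2.08 and 2.51 times the library median, and the genotypes overlapped. In fold enrichment both LysMCre+ Rxrab fl/fl libraries lay below both controls relative to the library median (0.931 and 0.987 against 1.08 and 1.31), as at 32.8% of all regions tested. The changes were −0.31 ± 0.21 in log2 fold enrichment (SE, adjusted p = 0.414 from limma), 0.02 ± 0.23 in log2 pileup (adjusted p = 0.969) and 0.30 ± 0.22 in log2 background (adjusted p = 0.417). Its summits lay at −153, −147, −128 and −130 bp from the RefSeq start.

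Beside the promoter, Id2 had a region at −2.83 kb (chr12:25098759-25099079) that was called in all libraries but Rxrab fl/fl replicate 3. Its fold enrichment was 5.92, 6.74 and 4.45, with pileups of 74, 89 and 54 tags. A region at 3.57 kb (chr12:25092289-25092763), past the end of the gene, was called in Rxrab fl/fl replicate 1 and LysMCre+ Rxrab fl/fl replicate 2, where fold enrichment was 4.22 and 3.80 and the pileup 54 and 41 tags. Farthest from an Id gene was a region at 41.3 kb (chr12:25054552-25054942) in an intron of Kidins220, with a fold enrichment of 8.88, 20.8 and 11.6 in the same 3 libraries as the −2.83 kb region and pileups of 26, 58 and 26 tags. It had only 102, 92 and 66 tags in its 10 kb. With limma over the 33346 regions called in at least 3 libraries, where each of these regions has 1 control value, the change was −0.34 ± 0.36 in fold enrichment at −2.83 kb (SE, adjusted p = 0.717) and 0.58 ± 0.37 at 41.3 kb (adjusted p = 0.495). In that fit neither region passed in pileup (adjusted p = 0.944 and 0.864) or background (adjusted p = 0.882 and 0.727). The fold enrichment at 41.3 kb in LysMCre+ Rxrab fl/fl replicate 1 was above that of the Id2 promoter (14.1) in the same library, at 58 against 208 tags.

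The Id4 promoter region (chr13:48260709-48261225), which also lies in an intron of the antisense gene A330033J07Rik, showed the smallest change in fold enrichment among the 5. Fold enrichment was 16.3, 7.27, 16.6 and 11.1, with pileups of 64, 15, 71 and 32 tags and 150, 60, 167 and 99 tags in the 10 kb. The pileups were 0.653, 0.714, 0.71 and 0.492 times the library median, well under those of Id2 and Id3, and the genotypes overlapped. The changes were −0.05 ± 0.21 in log2 fold enrichment (SE, adjusted p = 0.922 from limma), −0.21 ± 0.25 in log2 pileup (adjusted p = 0.583) and −0.19 ± 0.22 in log2 background (adjusted p = 0.630). The fold enrichment of the Id4 promoter was above that of Id2 in replicate 1 of each genotype and below it in the other libraries, although its pileup was lower than that of Id2 in every library. Its 10 kb also held fewer tags. The other Id4 region at 0.47 kb, in the coding exon, was called in LysMCre+ Rxrab fl/fl replicate 1 alone, with 14 tags.

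By summit pileup in each library, the order of the promoters differed from that by fold enrichment. In pileup relative to the library median, Id2 (2.08 to 2.51) and Id3 (2.37 to 2.90) overlapped each other and lay above Id1 (0.449 to 0.769) and Id4 (0.492 to 0.714), which also overlapped. In fold enrichment relative to the library median, Id3 came first in both controls (1.31 and 2.07), and in both LysMCre+ Rxrab fl/fl libraries it lay below Id2 (0.931 and 0.987) and Id4 (1.09 and 0.920), at 0.573 and 0.560. No test was made of this order, because Id3 was chosen for it.

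The partners and turnover factors of Id proteins were taken as a list of 11 genes with 62 regions, of which 29, 15, 60 and 47 were called by library. Of all 70744 regions, 52.0%, 21.9%, 90.7% and 77.2% had a peak in these libraries. Of these regions 16 (25.8%) had a peak in the 2 LysMCre+ Rxrab fl/fl libraries but no control, beside 22.8% of all regions. The E protein genes had 2 regions at Tcf3, 16 at Tcf4 and 18 at Tcf12, of which 1, 2 and 5 could be tested and 0 passed on any measure with limma (unadjusted p under 0.05 at 1 in fold enrichment, 1 in pileup and 1 in background). Over the whole list 15 regions were tested, 0 passed in fold enrichment (2 unadjusted) or pileup (3 unadjusted), and 1 passed in background (3 unadjusted). Over all regions the shares called were 0.0668%, 6.74% and 1.75%, and those at an unadjusted p under 0.05 were 21.8%, 32.5% and 25.6%. The region that passed lay 5.86 kb from Lyl1, a helix-loop-helix factor of blood cells that pairs with E proteins, with 622, 171, 1312 and 1206 tags in the 10 kb and pileups of 111, 26, 206 and 147 tags. Its background changed by 1.29 ± 0.22 (SE, adjusted p = 8.42e-05 from limma), and its pileup by 0.86 ± 0.22 (adjusted p = 0.0360), which is under the limit on the change. Median changes over the 15 regions were −0.06 in fold enrichment, −0.18 in pileup and −0.18 in background on the log2 scale.

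The second list held 22 genes of BMP and SMAD signalling, the inputs known to act on Id genes. Regions were found at 21 of them, 121 in all. By library, 48, 19, 111 and 93 of these regions were called, beside 52.0%, 21.9%, 90.7% and 77.2% of all regions. Of the 121 regions 36 (29.8%) had a peak in the 2 LysMCre+ Rxrab fl/fl libraries but no control, beside 22.8% of all regions. Of 18 regions tested, 0 passed in fold enrichment (4 unadjusted) or background (8 unadjusted), and 1 passed in pileup (5 unadjusted), where it was lower in LysMCre+ Rxrab fl/fl. Over all regions 0.0668%, 1.75% and 6.74% were called on these measures, and 21.8%, 25.6% and 32.5% had an unadjusted p under 0.05. The region that passed lay −56.5 kb from Bmp2, a BMP ligand, with pileups of 59, 14, 30 and 20 tags. The change in pileup was −1.04 ± 0.22 (SE, adjusted p = 0.0240 from limma), or 0.03 when scaled by the lowest background of each library, which moved the median of all regions to 1.00. Relative to that median it was −0.97 in both fits. The region also did not pass after quantile normalization, with a change of −0.86, under the limit of 1. With regions called in at least 3 libraries it did not pass either (−0.91, adjusted p = 0.527 from limma). Without LysMCre+ Rxrab fl/fl replicate 1 the change was −1.01 (adjusted p = 0.129 from limma) and without replicate 2 it was −1.11 (adjusted p = 0.124), in fits that called 0 regions in pileup over the whole table. Median changes over the 18 regions were −0.24 in fold enrichment, −0.24 in pileup and 0.04 in background on the log2 scale.

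The genes next to the Id genes were counted as well, beside shares of 52.0%, 21.9%, 90.7% and 77.2% of all regions called by library. On the lower side of Id1, Mcts2 had 7 regions, of which 1, 1, 6 and 5 were called by library, and on the upper side Cox4i2 had 3, called in 2, 0, 3 and 3. Next to Id2, Kidins220 had 5 regions (1, 1, 5 and 2) and Gm17746 had 32 (22, 8, 28 and 23). Gm42329, next to Id3, had 5 regions (4, 2, 5 and 5), and beside Id4 Gm36183 had 1 region (1, 0, 1 and 1) and A330033J07Rik 0 regions of its own.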

How the data were processed

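Per the labels and the study's methods, the authors trimmed reads with cutadapt, aligned them to mm10 with Bowtie2, removed duplicates and reads on chrM, X and Y, called peaks in each library with MACS2 2.1.1 (shift 100, extension 200 bp, q 0.05) and dropped peaks on the blacklist. The deposited lists hold the fold enrichment, a ratio at the summit, the −log10 p and q values, and a whole-number score that was not used. Other tools in the submitters' processing notes were bedtools 2.24.0, SAMtools 0.1.18, HOMER 4.10.3, DiffBind 2.6.6 and edgeR 3.20.9. The study left out samples that did not cluster with their group, so the spread here may be understated.

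Pileup and background were solved from fold enrichment and p (tolerance 0.005 in −log10 p). The count test of the study could not be repeated on peak lists, so log2 values centred on library medians were tested with limma 3.58.1 in R 4.3.3 over 14974 regions (adjusted p under 0.05, change past 1), after a test on simulated data. An exact test of 2 against 2 libraries cannot go below p = 0.333. Named regions were all Id regions, list regions past the threshold and the 5 nearest to the Id3 promoter. The members and lists were chosen with earlier results of these data known. Alternatives covered normalization, filters, peak widths, peak numbers and leaving out each library. Python 3.11.15, pandas 2.3.3, scipy 1.17.1 and matplotlib 3.10.9 were used.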

Additional observations from a re-analysis of the deposited data

How the results depend on the processing

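No paired analysis was possible because the genotypes share only replicate number 1. Peak lists hold no region below the call threshold. Rxrab fl/fl replicate 3 had low pileups, at a lowest background (1.06) near that of LysMCre+ Rxrab fl/fl replicate 2 (1.08). Regions called over the whole table numbered 10 in fold enrichment, 1009 in pileup (389 higher, 620 lower) and 262 in background. In fold enrichment the count was 49 with regions called in at least 3 libraries, 35 on log2(fold enrichment + 1), 0 with the mean over the peaks of a region, 123 with a mean-variance trend and 1 after quantile normalization. In pileup it was 36 with at least 3 libraries, 5 when scaled by the lowest background and 1805 on the adjusted p alone, and quantile normalization gave 1005 (535 higher, 470 lower). In background it was 0, 2714 and 1493 in the same 3 settings and 131 after quantile normalization. Leaving out each library gave 9 to 1068, 0 to 4393 and 182 to 703. The causes were not tested.

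With an equal number of peaks, Id regions numbered 7 in place of 13, and 0 in place of 3 had a peak in the 2 LysMCre+ Rxrab fl/fl libraries but no control. In that setting 1 in place of 0 had a peak in both controls alone, and 2 in place of 5 had a peak in all 4 libraries. At the Id3 promoter the changes ran from −1.87 to −1.39 in fold enrichment, from −0.32 to 1.03 in pileup and from 1.18 to 2.16 in background. Scaled by the lowest background, the Id1 and Id2 promoters passed in background (1.05 and 1.00, beside a median of 0.63), and the Bmp2 region had a pileup change of 0.035 in place of −1.04, which relative to the median of all regions (1.00) was −0.97 in both. The Lyl1 region changed by 1.45 in background with at least 3 libraries, where 0 regions passed (adjusted p = 0.440 from limma), and by 0.98 after quantile normalization, under the limit of 1 (adjusted p = 0.00134). Of 184 values for single regions, 167 were counted as the same. At the Id3 promoter this meant a shift within the spread between libraries of a genotype. Outside Id3 it meant no change in whether the region passed, and a change of sign counted as the same where neither fit passed. The pileup change of the Id2 promoter, for example, changed sign in 4 of 11 alternatives. Of the nearest 5 regions to the Id3 promoter, an alternative chosen after seeing the data, 2 to 3 were shared when a library was left out.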
